A study of Mus musculus with 6 samples.

Results

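Glycolysis splits glucose into pyruvate in the cytosol, and lactate dehydrogenase then turns pyruvate into lactate. Vascular smooth muscle cells (SMCs) are known for making lactate even when oxygen is plentiful. Most steps are carried by several isoenzymes from separate genes, and the busiest of these genes have left many processed copies of their transcripts in the mouse genome, which complicates the counting of their reads.

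Transcripts of 10 glycolytic enzyme genes were examined in the thoracic aorta of mice 12 weeks of age: Hk2, Pfkp, Aldoa, Gapdh, Pgk1, Eno1, Eno1b, Eno2, Pkm and Ldha. They were found by Ensembl identifier among the 52636 genes of the deposited count table. They filled 11 rows, because the symbol Aldoa belongs to 2 identifiers. One of these is the full gene and is used throughout, whereas the other held 3 counts in 1 library and 0 in the other 5. The 10 genes were picked by name with their difference between the groups already known, so that difference is given here as a description, with no test.

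The study asked what short-term loss of TGF-β signaling in SMCs does to the mature aorta. Bulk RNA sequencing was available for 4 libraries of untreated C57BL/6J mice (WT-1 to WT-4) and 2 libraries labelled Tgfbr1/2iSMCKO (KO-1 and KO-2). The latter mice carry floxed Tgfbr1 and Tgfbr2, an inducible Cre recombinase driven by the SMC promoter Myh11 (Myh11-CreERT2) and the mT/mG reporter. They received tamoxifen at 2 mg per day i.p. for 5 days from 11 weeks of age. Genotype, Cre, reporter, tamoxifen and breeding history all separate the groups and cannot be told apart. The WT mice were of a purchased strain, whereas the compound mutants were bred to that background over several generations. Whether other sequence differences remain between the groups was not tested. In a bulk sample, fewer cells of a type and less RNA per cell cannot be told apart either.

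Libraries held 19650983 to 28860598 counts. Counts are given below after division by DESeq2 size factors (normalised read count). Whole-gene totals of Tgfbr1 and Tgfbr2 overlapped between the groups (3858 to 5420 in WT against 5780 and 4568, and 5327 to 7042 against 5784 and 5937). They do not check the labels, since reads from undeleted exons and from other cells remain. Both KO libraries stood apart in tissue content. The summed level of 7 cardiac muscle markers was 804 to 1899 in WT, 25961 in KO-1 and 2817 in KO-2, with 7 of 7 and 3 of 7 markers above every WT library. For 4 brown adipocyte markers it was 346 to 537 in WT, 555 in KO-1 and 10922 in KO-2. For 5 white adipocyte markers it was 1938 to 3343, 3273 and 29881, and for 5 red blood cell markers 859 to 5990, 11076 and 61684. Transcripts of the mitochondrial genome took 2.62 to 4.44% of WT counts, 3.38% in KO-1 and 11.7% in KO-2. Macrophage markers (6 genes) summed to 7125 to 8504 in WT, 12701 in KO-1 and 13735 in KO-2, and endothelial markers (5 genes) to 10448 to 20024, 29381 and 28206. Fibroblast markers (5 genes) summed to 38423 to 42790, 55617 and 52817, and mesothelial markers (4 genes) to 207 to 389, 801 and 2074. Lymphocyte markers (5 genes) summed to 17.8 to 57.1, 59.2 and 262, and Schwann cell markers (4 genes) to 275 to 442, 561 and 440. The 6 smooth muscle markers summed to 878299 to 1037960 in WT, 832799 in KO-1 and 992571 in KO-2, so the labelled tissue was present in every library. The single markers moved in different directions. Myh11 was above every WT library in both KO libraries, Tagln, Cnn1 and Smtn were below, and Acta2 and Lmod1 overlapped.

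**Figure D1:**
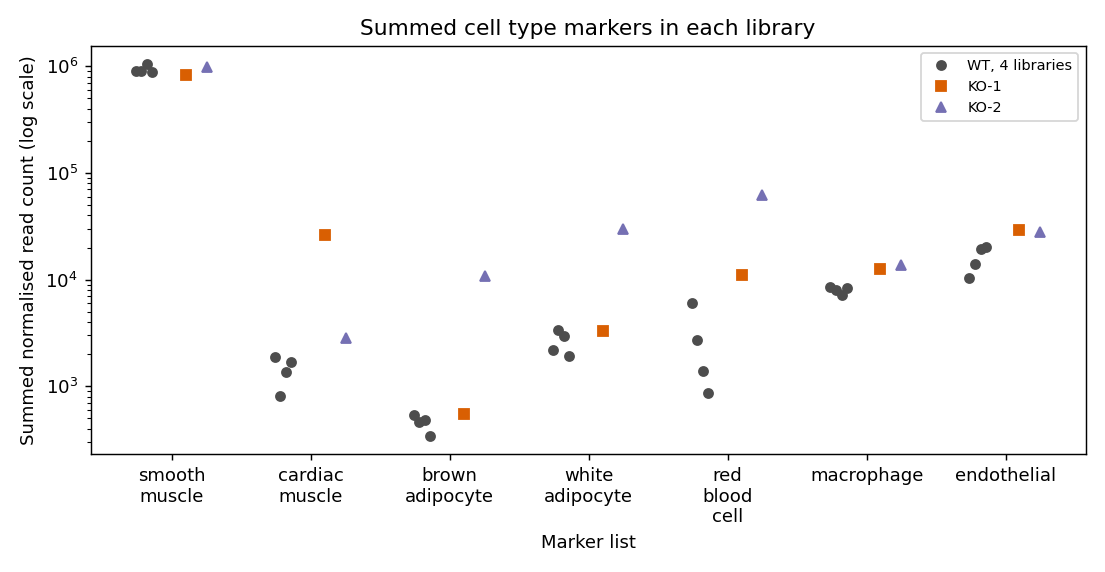
Summed normalised read count of 7 marker lists (log axis) in each library, with WT libraries as circles, KO-1 as a square and KO-2 as a triangle. The cardiac sum is highest in KO-1, and the adipocyte and red blood cell sums are highest in KO-2.

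The enolase and Gapdh values turn on copies that differ from their parent gene at a handful of bases, so stretches of both pairs are shown first. Over the 1302 coding bases of Eno1, the annotated processed pseudogene Gm4735 differed at 5 bases (99.62% identity). The protein-coding retrogene Eno1b differed from Eno1 at 8 bases (99.39%) and from Gm4735 at 3 (99.77%). Gm4735 lies at chr2:80837141-80838442 on the plus strand and Eno1 at chr4:150236721-150248879 on the plus strand (GRCm38, GENCODE). The following 60-base windows cover positions 1198 to 1257, counted from the first base of Gm4735. Capitals mark the bases that differ. The Eno1 window crosses an exon junction within chr4:150248082-150248507, and the Gm4735 window is chr2:80838338-80838397.
Eno1: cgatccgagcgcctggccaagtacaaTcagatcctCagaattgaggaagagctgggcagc
Gm4735: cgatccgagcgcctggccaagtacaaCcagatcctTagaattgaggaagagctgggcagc
Written with the base of Eno1, the position and the base of Gm4735, the differences here are T1224C and C1233T, and the others are T726C, T816G and A1056G. A read that covers none of these positions carries the same letters in both genes.

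Gapdh had a closer copy still. Gm5559, a processed pseudogene at chr5:95861714-95862715 on the plus strand, differed from Gapdh (chr6:125161715-125166467, minus strand) at 1 of 1002 bases, an identity of 99.9%. The window at positions 355 to 414 of Gm5559 shows that base, T385A, in capitals. It is chr6:125162948-125163007 (minus strand) in Gapdh and chr5:95862068-95862127 in the copy.
Gapdh: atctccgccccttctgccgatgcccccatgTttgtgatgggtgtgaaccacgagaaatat
Gm5559: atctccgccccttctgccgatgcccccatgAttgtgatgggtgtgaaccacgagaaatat
Sequence similarity (at least 90% identity over at least 50% of the copy) found 190 annotated genes that match Gapdh and 8 that match Eno1. The matches numbered 17 for Ldha, 8 for Pkm, 5 for Aldoa and 4 for Pgk1.

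Enolase turns 2-phosphoglycerate into phosphoenolpyruvate, and Eno1 encodes its broadly expressed form. Eno1 had 3061, 3517, 2819 and 2955 normalised reads in the WT libraries in order, 2294 in KO-1 and 3685 in KO-2. One KO library was below all WT libraries and the other above them, and the log2 fold change (KO against WT) was -0.05 ± 0.22 (SE). Eno1b, on chromosome 18, had 0 counts in each of the 4 WT libraries and 484 and 386 raw counts in KO-1 and KO-2, which are 367 and 474 normalised. Against a floor of 3 counts per library, its mean in KO was at least 139-fold higher.

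Because these 2 genes share reads, their sum does not depend on how shared reads are split between them. The sum was 3061, 3517, 2819 and 2955 in WT, 2661 in KO-1 and 4159 in KO-2, with a log2 fold change of 0.14 ± 0.21 (SE). KO-1 stayed below and KO-2 above the WT libraries. Without KO-1 the log2 fold change of the sum was 0.43, and without KO-2 it was -0.20, so its sign rests on KO-2.

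The pseudogene Gm4735 followed Eno1b. It had 0, 4.49, 2.996 and 7.31 normalised reads in the WT libraries and 317 and 442 in KO-1 and KO-2, a log2 fold change of 6.66 ± 0.52 (SE). Added to the sum, it gave 3061, 3521, 2822 and 2962 in WT and 2978 and 4602 in KO, with a log2 fold change of 0.29 ± 0.21 (SE). The groups still overlapped, with KO-1 among the WT values and KO-2 above them. Copies of Eno1 took 0.106 to 0.352% of all Eno1-type reads in WT. In KO-1 they took 23.1% (95% Clopper-Pearson interval 21.8 to 24.4%) and in KO-2 20.1% (18.8 to 21.4%). These intervals treat the estimated counts as independent reads. They leave out error in the estimates, the assignment of shared reads and the spread between mice. The same holds for the Gapdh intervals below. The share held by copies differed between the groups, while the total over these loci overlapped. The deposited counts do not show which locus the reads came from. The part of breeding history in the share held by copies was not tested.

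**Figure D2:**
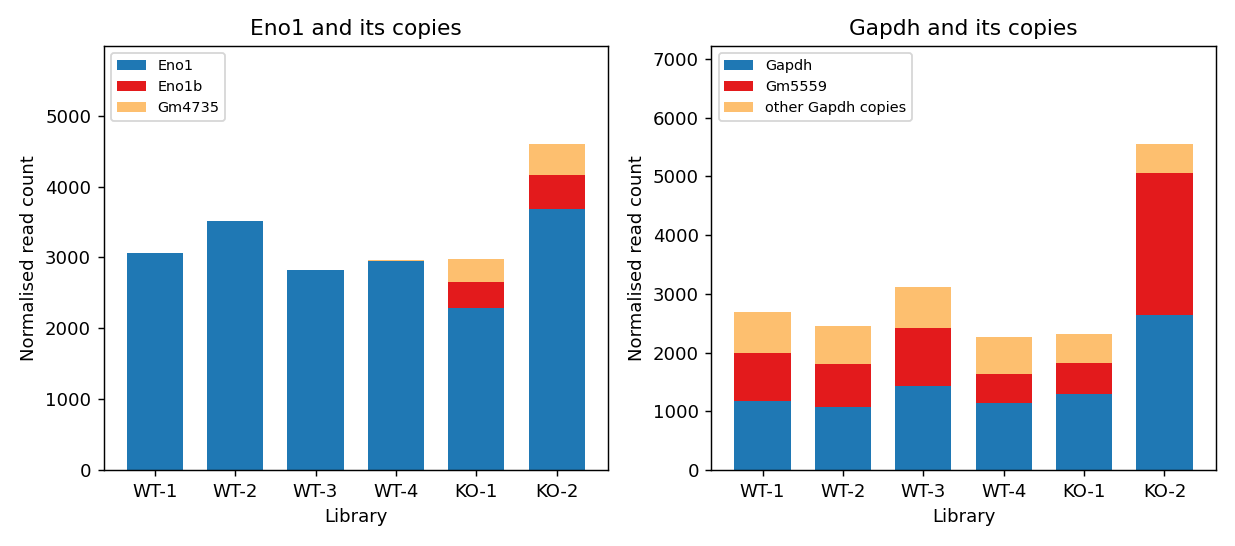
Normalised read count (linear axis from 0) stacked by locus in each library, for Eno1, Eno1b and Gm4735 on the left and for Gapdh, Gm5559 and the other annotated Gapdh copies on the right. Eno1b and Gm4735 hold visible segments only in KO-1 (367 and 317) and KO-2 (474 and 442), whereas Gapdh copies hold a large share in every library.

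Eno2 encodes the neuron-type enolase. It had 460, 420, 340 and 307 normalised reads in WT, 270 in KO-1 and 225 in KO-2. Both KO values lay below every WT value, and the log2 fold change was -0.62 ± 0.26 (SE). Eno3, the muscle enolase and no member of the 10, had 559, 548, 251 and 318 reads in WT, 646 in KO-1 and 189 in KO-2 (DESeq2 adjusted p = 0.9999). Its highest value was in KO-1, the library with the most cardiac marker reads, and its lowest in KO-2. The part of the cardiac markers in this was not tested. Per kilobase of exon, Eno1 made up 57.6 to 70.8% of Eno1, Eno2 and Eno3 in WT, 49.8% in KO-1 and 81.4% in KO-2. Eno3 made up 19.5 to 32.5%, 43.4% and 12.9%. These shares leave out the reads assigned to Eno1b and Gm4735, which were numerous in the KO libraries only. They therefore depend on how reads were split between Eno1 and its copies.

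Gapdh encodes the dehydrogenase that yields the first NADH of the pathway and often serves as a reference transcript. Its normalised read counts were 1185, 1070, 1436 and 1137 in WT, 1302 in KO-1 and 2638 in KO-2. KO-1 was within the WT range and KO-2 lay above it, with a log2 fold change of 0.71 ± 0.27 (SE). Without KO-2 it was 0.12. The copy Gm5559 had 805, 736, 992 and 496 reads in WT, 517 in KO-1 and 2424 in KO-2. Summed, the pseudogene copies held 49.7 to 56.5% of all Gapdh-type reads in WT, 43.7% in KO-1 (41.9 to 45.5%) and 52.5% in KO-2 (51.0 to 54.0%). Gapdh plus these copies was 2695, 2457, 3118 and 2262 in WT, 2312 in KO-1 and 5554 in KO-2, a log2 fold change of 0.58 ± 0.29 (SE). The restriction to pseudogenes was chosen after seeing the data. With every match summed, which adds the protein-coding gene Peli2, the log2 fold change was 0.35 ± 0.22 (SE). On both sums KO-1 was not above WT and KO-2 was. KO-2, with the high adipocyte, red blood cell and mitochondrial values, was the 1 library out of range. The part of those cells in it was not tested.

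Phosphoglycerate kinase, encoded by Pgk1, forms the first ATP of the pathway. Pgk1 had 1339, 1338, 1305 and 1401 normalised reads in WT, 1820 in KO-1 and 1568 in KO-2. Both KO values lay above all WT values, which spanned a narrow range, and the log2 fold change was 0.33 ± 0.16 (SE).

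Hexokinase and phosphofructokinase commit glucose to the pathway. Hk2, the insulin-responsive muscle and fat hexokinase, had 1639, 1393, 1634 and 1458 reads in WT, 1183 in KO-1 and 1710 in KO-2, with a log2 fold change of -0.08 ± 0.20 (SE). Pfkp, the platelet-type phosphofructokinase, had 4342, 4265, 4120 and 4759 in WT, 5201 in KO-1 and 3465 in KO-2, with a log2 fold change of -0.01 ± 0.20 (SE). For each gene the 2 KO libraries lay on opposite sides of the WT range, and in opposite orders.

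The remaining members are Aldoa, Pkm and Ldha. Aldoa, which encodes the muscle-type aldolase, ranged from 8623 to 11490 normalised reads in WT and had 9190 in KO-1 and 10823 in KO-2, a log2 fold change of -0.05 ± 0.18 (SE). Pkm, the pyruvate kinase that makes the last ATP of the pathway, ranged from 12482 to 14056 in WT and had 13104 and 13748 in KO (0.00 ± 0.15). Both KO values of both genes were inside the WT range. Ldha, the lactate dehydrogenase subunit that favors lactate formation, had 3447, 3644, 3148 and 3035 in WT, 3360 in KO-1 and 4088 in KO-2 (0.17 ± 0.17). KO-1 was within and KO-2 above the WT range. Copies held under 0.5% of the reads of Aldoa, Pgk1, Pkm and Ldha in every library.

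All 10 genes were among the 17070 genes tested, of which 10.4% passed an adjusted p-value (DESeq2) of 0.05. No such call is given for the members. Both KO libraries lay above every WT library for 2 members (Eno1b and Pgk1; 17.9% of genes tested) and below for 1 (Eno2; 16.4%), or 3 members in either direction (34.3%). Nothing is read from these counts, since the members were named with this contrast known. The 9 members other than Eno1b had log2 fold changes under 1 in size, with a median of -0.01 against 0.01 for all genes tested. Together the members took 0.153 to 0.177% of counts in WT, 0.174% in KO-1 and 0.176% in KO-2, so their summed share was inside the WT range in both KO libraries.

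**Figure D3:**
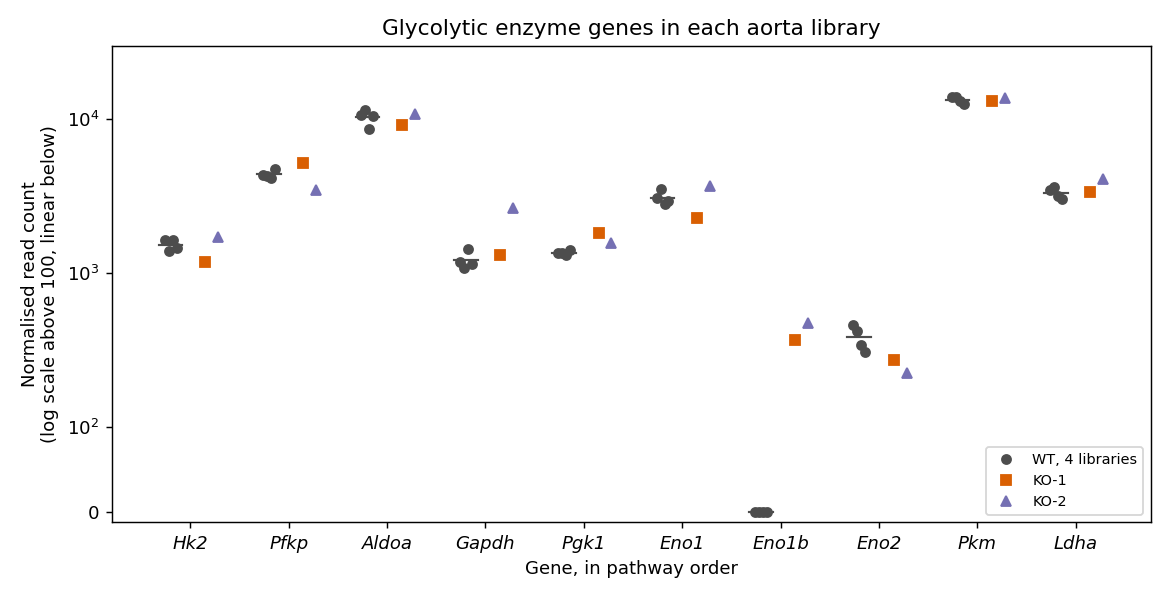
Normalised read count of the 10 genes in pathway order (log axis above 100, linear below), with WT libraries as circles, a bar at the WT mean, KO-1 as a square and KO-2 as a triangle. Eno1b alone is at 0 in WT and above 300 in both KO libraries, while Hk2, Pfkp and Eno1 have KO-1 and KO-2 on opposite sides of the WT points.

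Levels of different genes were compared per kilobase of annotated exon in the WT aortas. Aldoa was the highest member with 3551 ± 418 (SD, n = 4), followed by Pkm with 2676, Ldha with 1003, Pgk1 with 600 and Eno1 with 574. Pfkp had 326, Gapdh 292 and Hk2 256, and Eno2 came last of the members expressed in WT. Pgk1 and Eno1 overlapped between libraries, as did Pfkp with Gapdh and Gapdh with Hk2. Divided by the longest coding transcript in place of all exons, Eno1 (1523), Pfkp (1055) and Gapdh (850) all stood above Pgk1 (737). The order below Ldha therefore depends on the length used. The Gapdh level leaves out the reads assigned to its copies.

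**Figure D4:**
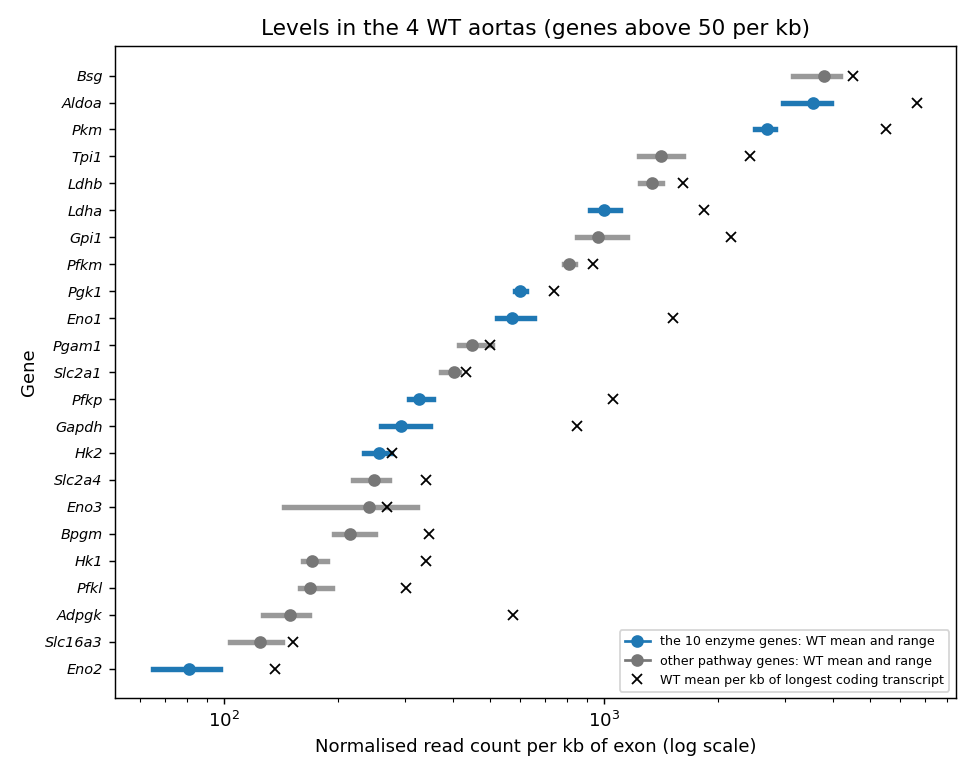
Normalised read count per kilobase of exon in the 4 WT libraries (log axis) for members and other glycolytic or transport genes above 50, as the mean (circle) and range (line), with crosses for the mean per kilobase of the longest coding transcript. Aldoa and Pkm lead the members on both scales, and Eno1, Pfkp and Gapdh shift most among the members.

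Isoenzyme makeup was also taken per kilobase. Hk2 made up 56.8 to 60.8% of the 3 hexokinases measured in WT, 45.4% in KO-1 and 56.7% in KO-2. Pfkm, the muscle phosphofructokinase, made up 60.5 to 64.2% of its family in WT, 56.3% in KO-1 and 46.4% in KO-2, where Pfkl, the liver form, had 26.0% against 12.2 to 14.9% in WT. Ldha made up 41.4 to 43.7% of Ldha plus Ldhb in WT, 32.4% in KO-1 and 40.3% in KO-2. With the longest coding transcript, the leading isoenzyme in WT changed to Hk1 (50.5 to 55.2%), Pfkp (44.1 to 48.2%) and Ldha (51.7 to 54.0%), so no isoenzyme is called dominant in these families. Eno1 led the enolases on both lengths.

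The genes around the 10 enzymes were taken from 6 lists of 72 pathway genes, of which 63 were tested. These lists were chosen with earlier results of these data known. The shares below are therefore a description, and no enrichment is read from them. An adjusted p-value (DESeq2) under 0.05 was reached by 18, or 28.6% against 10.4% of all genes. Of these, 17 rose in KO, where 5.71% of all genes did, and 1 fell (4.69%). A change over 2-fold was seen in 7 (5.64%). Their median log2 fold change over the 63 tested was 0.25, beside 0.01 for all genes tested. In 14 of the 18 the change was larger in KO-2, and in 16 both KO libraries lay outside the WT range (34.3% of all genes tested). Genes that pass are selected for separation from WT, and neither count was taken over all passing genes. Nothing is read from either. Without KO-2 the count of passing genes was 9, of which 6 were among the 18, and without KO-1 it was 23. With edgeR it was 11. A fit that leaves 1 KO library assumes that it varies like the others.

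Of 14 other glycolytic enzymes tested, 3 rose. Ldhb, the subunit that favors pyruvate formation, rose from 2098 ± 123 (SD, n = 4) to 3327 in KO-1 and 2873 in KO-2 (log2 fold change 0.56 ± 0.16 SE, DESeq2 adjusted p = 0.0090). It lost the call with edgeR without a filter and with the replicate number as a block. Bpgm, which makes 2,3-bisphosphoglycerate in red cells, rose from 768 ± 89.0 to 1123 and 1915 (0.98 ± 0.24, adjusted p = 0.00137), and lost the call without KO-2. Pgam2, the muscle phosphoglycerate mutase, rose from 7.37 ± 6.43 to 272 and 49.2 (4.44 ± 1.43, adjusted p = 0.0230), and lost the call without either KO library, WT-3 or WT-4. Red cell markers were above WT in both KO libraries and highest in KO-2, as was Bpgm, and cardiac markers were highest in KO-1, as was Pgam2. The 7 skeletal muscle markers summed to 171 to 237 in WT, 672 in KO-1 and 191 in KO-2. Ckm, muscle creatine kinase, which the heart also expresses, held most of the KO-1 sum (609 against 104 to 141 in WT), while Myh1 and Pvalb were at 0 in every library. Their part in these changes was not tested.

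The other isoenzymes did not pass. Hk1 had a log2 fold change of 0.32 ± 0.16 (adjusted p = 0.225), Gpi1 0.16 ± 0.18 (adjusted p = 0.671), Pfkl 0.32 ± 0.20 (adjusted p = 0.346) and Pfkm -0.47 ± 0.22 (adjusted p = 0.167). Tpi1 had 0.17 ± 0.18 (adjusted p = 0.641), Pgam1 -0.10 ± 0.21 (adjusted p = 0.849) and Aldoc, at 9.48 reads in WT, 0.19 ± 0.92 (adjusted p = 0.935). Pfkm had 2437 reads in KO-1 and 1452 in KO-2, both below the WT range of 2614 to 2803. Its log2 difference from the WT mean was -0.15 in KO-1 and -0.89 in KO-2. Among 6 regulators tested, only Fbp2, muscle fructose bisphosphatase, passed (DESeq2 adjusted p = 0.0473), on 27 counts in KO-2 and 0 in the other 5 libraries. It lost the call with edgeR without a filter and without WT-1 or WT-2, among 4 alternatives that gave it an adjusted p-value. No fold is given for it.

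Of 7 transport genes, 2 rose and 1 fell. Slc16a1, which encodes the lactate and pyruvate carrier MCT1, had 146, 157, 210 and 205 normalised reads in WT, 392 in KO-1 and 970 in KO-2. Both KO values were above all WT values (log2 fold change 1.92 ± 0.35 SE, DESeq2 adjusted p = 2.14e-06), and it passed under all 12 alternative settings, with a log2 fold change of 1.14 without KO-2. Slc16a3, which encodes the lactate exporter MCT4, fell from 707, 757, 622 and 552 in WT to 312 and 391 (-0.91 ± 0.22, adjusted p = 0.00120). It lost the call with the replicate number as a block. Slc2a4, the insulin-responsive glucose transporter GLUT4 of muscle and fat, rose from 861 ± 81.4 to 1198 and 1561 (0.68 ± 0.20, adjusted p = 0.00960) but lost the call with edgeR or without KO-2. Slc2a1, the broadly expressed glucose transporter GLUT1, had 1307 to 1455 in WT and 1052 and 1128 in KO, both lower, but did not pass (-0.37 ± 0.16, adjusted p = 0.137).

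Of 13 genes that govern the entry of pyruvate into mitochondria, 5 rose: the pyruvate dehydrogenase subunits Pdha1, Pdhb, Dlat and Dld, and the kinase Pdk4, which inhibits that enzyme. Pdk4 had 477, 427, 480 and 543 normalised reads in WT, 1088 in KO-1 and 3050 in KO-2 (log2 fold change 2.102 ± 0.33 SE, DESeq2 adjusted p = 1.75e-08), and passed under all 12 alternatives, with a log2 fold change of 1.19 without KO-2. The 4 subunits had log2 fold changes of 0.77 ± 0.20 (Pdha1), 0.81 ± 0.28 (Pdhb), 0.81 ± 0.23 (Dlat) and 0.76 ± 0.20 (Dld), with adjusted p from 0.00353 to 0.0402. All 4 were highest in KO-2, and all lost the call without it. Dlat and Pdhb also lost it with edgeR, and Pdhb without any 1 WT library. Pdhb was 1556 in KO-1, just above the WT maximum of 1543, and 3598 in KO-2. The mitochondrial share and the brown adipocyte markers were also highest in KO-2, and their part was not tested.

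The pentose phosphate pathway branches from glucose 6-phosphate and yields NADPH. Of its 7 genes, 3 rose. G6pdx, its first enzyme, rose from 1131 ± 42.0 to 1541 and 3043 (log2 fold change 1.02 ± 0.25 SE, DESeq2 adjusted p = 0.00148) and lost the call without KO-2. Rpe, an epimerase, rose from 644 ± 90.9 to 1017 and 1035 (0.67 ± 0.20, adjusted p = 0.0131), and lost the call with edgeR and without WT-2 or KO-2. Tkt, transketolase, was 9825 in KO-2 but 3138 in KO-1, inside the WT range of 2667 to 3433 (1.06 ± 0.33, adjusted p = 0.0191). That call was lost without KO-2 or any 1 WT library, and with edgeR.

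HIF-1 is the oxygen-sensitive factor known to drive many glycolytic genes. Of 16 genes of this list tested, 3 rose. Egln3, an oxygen-sensing prolyl hydroxylase and HIF target, rose from 205, 260, 250 and 267 in WT to 709 and 736 (log2 fold change 1.56 ± 0.21 SE, DESeq2 adjusted p = 6.43e-11), with similar values in both KO libraries, and passed under all 12 alternatives. Ndrg1 rose from 2422 ± 113 to 4192 and 3849 (0.73 ± 0.15, adjusted p = 7.63e-05), and lost the call with the replicate number as a block. Vegfa, which encodes an endothelial growth factor, rose from 791 ± 60.9 to 1065 and 1661 (0.78 ± 0.22, adjusted p = 0.00729) but lost the call with edgeR or without KO-2. Hif1a had a log2 fold change of 0.05 ± 0.22 (adjusted p = 0.928). Besides the 3 that rose, no gene tested from this list passed, and most of those overlapped between the groups. Several members are known HIF-1 targets. Of all the members, only Eno1b and Pgk1 had both KO libraries above WT. Reads of Eno1b cannot be told apart from those of its near-identical copies by these counts. The part of HIF-1 in any of these values was not tested.

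**Figure D5:**
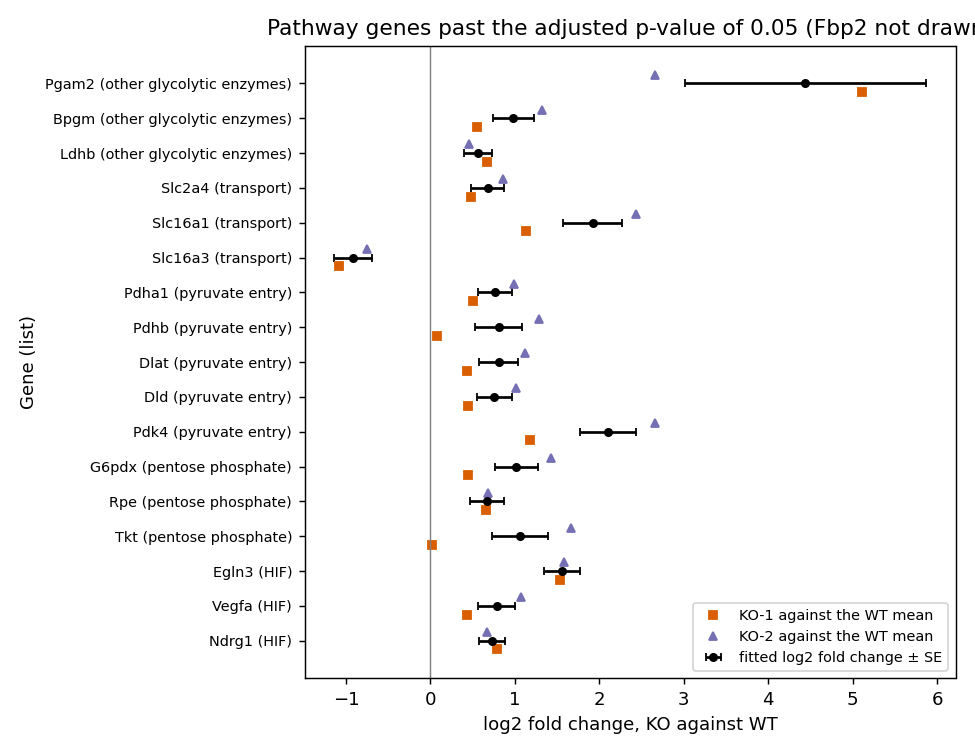
log2 fold change (KO against WT) of the pathway genes that passed the adjusted p-value of 0.05, as the DESeq2 estimate with its SE (circle and bar), with KO-1 (square) and KO-2 (triangle) each against the WT mean. Fbp2 is not drawn because its WT counts are 0. Egln3, Ndrg1, Rpe, Ldhb and Slc16a3 have KO-1 and KO-2 close together, whereas Pdhb and Tkt are near 0 in KO-1.

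The genes whose pattern over the 6 libraries lay nearest to that of the Eno1 plus Eno1b sum were found by Euclidean distance between centred log2 values, over 15509 genes that averaged 10 or more normalised reads. They were Slc46a1 (0.116), Klrg2 (0.125), Zbtb7c (0.135), Elmod3 (0.152) and Bend3 (0.165). Slc46a1, the nearest, had 94.5, 103, 84.9 and 91.9 reads in WT, 81.9 in KO-1 and 118 in KO-2. Like the sum, it was lowest in KO-1 and highest in KO-2. Its choice as the nearest gene favors this order, so nothing is read from it.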

How the data were processed

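Total RNA was extracted from thoracic aortas with an RNeasy kit. According to the study's methods and the submitters' processing notes, the authors trimmed reads with Trim Galore, aligned them with HISAT2 to GRCm38 (mm10) and quantified them with StringTie on a GENCODE annotation. The deposited table holds estimated counts per gene as whole numbers; the conversion from coverage and the use of strand are not given in the sources used here. Column codes were matched to libraries as 4 WT and 2 KO. Counts were used as deposited, with no pseudocount in the fits.

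DESeq2 1.42.0 (Wald test, Benjamini-Hochberg over all genes tested) compared 2 KO with 4 WT libraries, in R 4.3.3. edgeR 4.0.16 (quasi-likelihood) was an alternative. Both were tested on simulated data, in which every gene had the same dispersion and replicates did not differ in tissue content. That test therefore does not cover the difference between KO-1 and KO-2. Copies were found with BLAST 2.17.0 in GENCODE M21 on GRCm38, which held 52489 of 52636 identifiers. Named genes were the 10 members, every pathway gene with an adjusted p-value under 0.05, 13 chosen isoenzymes, transporters and regulators, the copies, and the 5 genes nearest to the Eno1 sum. The members and gene lists were chosen with earlier results of these data known. The study counts as many mice as there are libraries in each group, and litter and batch are not given in the sources used here. No 2 libraries of the same group were duplicates. Alternatives covered the tool, filter, scaling, replicate block and omission of each library.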

Additional observations from a re-analysis of the deposited data

Results flagged for a closer look

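Among 37 sets of 4 WT values checked, 3 held a library set apart from the other 3 by more than Dixon's 95% critical value of 0.829, where chance flags about 1 in 20 sets. Pfkl was 1282 in WT-2 against 1060 to 1090 in the others. Slc2a1 was 1307 in WT-2 against 1440 to 1455. Vegfa was 701 in WT-1 against 807 to 828. None of the 9 enzyme genes with WT counts stood apart in this way.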

How the results depend on the processing

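The count of passing pathway genes (18) was 11 with edgeR and its filter and 10 without a filter, and the count of those that rose (17) was 10 and 9. All genes past the adjusted p-value numbered 1775, against 996 with edgeR and its filter and 931 without, and those also changed over 2-fold numbered 962, against 633 with edgeR and its filter. Leaving out each library gave 9 to 23 passing pathway genes, 8 to 19 rising and 1 to 4 falling, 1113 to 2439 genes past the adjusted p-value and 636 to 1284 over 2-fold, each lowest without KO-2 except the falling genes, and highest without KO-1. The log2 fold change of the Eno1 plus Eno1b sum ran from -0.20 to 0.43, and was 0.29 with Gm4735 added, an alternative chosen after seeing the data. With the replicate number as a block, 5 pathway genes passed, 5 rising and 0 falling, with 628 genes in all and 561 over 2-fold. The 5 were Bpgm, Slc16a1, Pdha1, Pdk4 and Egln3. Deviations from the group mean had correlations of -0.09 and 0.01 for the 2 pairs of libraries with the same number. With 2 KO libraries, their deviations mirror each other. These values therefore cannot settle whether the numbers pair the libraries. TMM factors, total counts and a mean count of at least 10 left every count within 1.5 times. The cause of these differences was not tested. Slc16a1, Pdk4 and Egln3 passed in all 12 alternatives, but without KO-2 the log2 fold changes of Slc16a1 and Pdk4 were 1.14 and 1.19, while that of Egln3 ran from 1.48 to 1.65. With 2 KO libraries that differ in marker content, single-gene changes are poorly fixed, and near-identical copies cannot be told apart from counts.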
